A study of Mus musculus with 4 samples.

Results

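To follow the genes by which dendritic cells (DCs) mature, leave a tissue and attract T cells, Ccr7, Fscn1, Ccl17, Ccl22, Il4i1, Plet1 and Cd209a were described across leukocytes of the inflamed gut wall, as 7 of the 16308 genes counted. They were chosen by their levels in these same count tables, which were known when the list was made, so their levels are a description and no test was applied to them. CD45+ cells had been sorted for single cell RNA sequencing from the muscularis externa, the muscle layer of the small intestine, of 12-week-old mice. There were 4 groups: WT C57BL/6J mice and CCR2 KO mice (Ccr2-/-, strain B6.129S4-Ccr2tm1Ifc/J), each at 24 h and at 72 h post-injury. Every mouse had undergone intestinal manipulation, a surgical handling of the gut that inflames the muscularis, and no naive group was analysed here. The KO is germline and so is present in all cell types, and CCR2 is the chemokine receptor that lets monocytes out of the bone marrow. There was 1 library per group, pooled from several mice, so every difference below is between 2 libraries, without replicates, and the 95% intervals cover counting error only.

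DCs take up antigen in tissue and, on maturation, switch on the chemokine receptor CCR7, which responds to CCL19 and CCL21 and guides them through lymph vessels to lymph nodes. Mature DCs also lengthen their actin-rich processes, raise costimulatory molecules and secrete chemokines that draw T cells towards them. Conventional DCs are divided into type 1, which excel at presenting antigen to CD8 T cells, and type 2, which mainly address CD4 T cells.

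The 7 genes fall into 4 roles. Ccr7 (ENSMUSG00000037944.8, chr11:99144196-99155077, minus strand, GRCm38) is the homing receptor, and Fscn1 (ENSMUSG00000029581.14, chr5:142960343-142973185, plus strand) encodes fascin, which bundles actin in the processes of mature DCs. Ccl22 (ENSMUSG00000031779.3, chr8:94745590-94751699) and Ccl17 (ENSMUSG00000031780.2, chr8:94810453-94812036) encode the ligands of CCR4, a receptor of regulatory and type 2 helper T cells. Both chemokine genes lie on the plus strand of chromosome 8, with 58753 bases between the end of Ccl22 and the start of Ccl17 and 1 protein-coding gene, the chemokine Cx3cl1, between them. Il4i1 (ENSMUSG00000074141.13, chr7:44816387-44840809, plus strand) encodes a secreted amino acid oxidase that restrains T cells, and it overlaps Nup62 on the same strand and Atf5 and Tbc1d17 on the other, so that its counts are uncertain. Plet1 (ENSMUSG00000032068.14, chr9:50494525-50505482, plus strand) encodes a membrane-anchored surface protein. It overlaps the antisense gene Plet1os, and whether strand was used in the counting is not given in the sources used here. Cd209a (ENSMUSG00000031494.7, chr8:3743397-3748984, minus strand) encodes a C-type lectin related to human DC-SIGN that marks type 2 and monocyte-derived DCs. Reads may be shared with its relatives in the Cd209 family.

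The 250 bases before the annotated start were available from RefSeq (GRCm38.p6) for 6 of the 7 genes. The RefSeq starts of Ccl22, Fscn1 and Il4i1 lie inside the gene bounds given above, so these windows also end inside those bounds. They are shown for the neighbouring chemokine genes, which differ in where they were found, for Plet1, which was higher in KO at both times, and for Fscn1, most of whose molecules were in mature-like DCs. Capitals mark matches to the motifs searched on both strands: the STAT6 site (TTC and GAA with 4 bases of any kind between them), the AP-1 site TGANTCA, the TATA box TATAAA and the NF-kB consensus.
Ccl17, chr8:94810203-94810452, plus strand: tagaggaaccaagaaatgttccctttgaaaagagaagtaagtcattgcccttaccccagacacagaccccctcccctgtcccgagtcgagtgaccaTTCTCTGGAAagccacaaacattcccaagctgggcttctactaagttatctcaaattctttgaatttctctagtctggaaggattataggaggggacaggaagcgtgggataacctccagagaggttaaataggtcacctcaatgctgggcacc
Ccl22, chr8:94745434-94745683, plus strand: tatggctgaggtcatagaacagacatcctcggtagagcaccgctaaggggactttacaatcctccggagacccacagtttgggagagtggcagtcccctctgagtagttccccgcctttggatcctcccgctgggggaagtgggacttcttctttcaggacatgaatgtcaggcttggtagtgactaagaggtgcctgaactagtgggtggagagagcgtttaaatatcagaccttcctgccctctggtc
Plet1, chr9:50494275-50494524, plus strand: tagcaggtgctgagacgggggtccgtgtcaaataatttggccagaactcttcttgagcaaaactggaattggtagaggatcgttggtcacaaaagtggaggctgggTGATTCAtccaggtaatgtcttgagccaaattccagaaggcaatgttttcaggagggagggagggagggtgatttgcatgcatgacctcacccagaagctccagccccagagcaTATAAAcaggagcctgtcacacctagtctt
Fscn1, chr5:142960105-142960354, plus strand: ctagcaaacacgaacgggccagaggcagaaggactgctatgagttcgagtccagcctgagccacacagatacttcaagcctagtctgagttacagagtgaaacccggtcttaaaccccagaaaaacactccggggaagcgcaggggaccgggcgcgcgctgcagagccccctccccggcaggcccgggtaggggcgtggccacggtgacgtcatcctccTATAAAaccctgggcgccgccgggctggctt
The STAT6 letters were found in Ccl17, 154 to 145 bases before the start, and not in Ccl22, and 5.85% of 32851 promoter windows of this length hold them. The AP-1 letters were found in Plet1, 144 to 138 bases before the start (6.75% of windows). The TATA box stood 31 to 26 bases before the start of Fscn1 and 30 to 25 before that of Plet1. Its letters were also found on the opposite strand, 184 to 179 bases before the start of Cd209a (12.4% of windows, either strand). The NF-kB consensus, which 3.9% of windows hold, was in 0 of the 6. These are matches of letters only.

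The 4 libraries held 5811 cells, with 1048 to 1774 cells, 9736725 to 21206308 unique molecular identifiers (UMIs, the counted molecules) and a median of 3281.5 to 12859 UMIs per cell. Cells were placed in classes by marker genes that include none of the 7. There were 51 DC-like cells in WT and 58 in CCR2 KO at 24 h, and 110 and 120 at 72 h, which was 3.05%, 3.27%, 8.37% and 11.5% of each library. They carried 842754, 1322168, 2006554 and 3545940 UMIs, in that order, with medians of 14777, 21343.5, 16755 and 27165.5 UMIs per cell. Of the 339 DC-like cells, 220 were type 2-like, 68 type 1-like and 18 mature-like, and 33 were unresolved. Mature-like means DC-like with the highest score for Cacnb3, Apol7c, Nudt17, Tmem123, Tbc1d4, Slco5a1, Il15ra, Zmynd15 and Traf1. A high score for this list became an entry into the DC class after Ccr7 UMIs had been seen in cells without a class. The shares below of Ccr7, and of genes found in the same cells, are therefore not independent of the gate. The mature-like cells were 1, 5, 5 and 7, or 1.96%, 8.62%, 4.55% and 5.83% of DC-like cells, whereas type 1-like cells were 6, 4, 19 and 39. In DC-like cells Ccr2 was at 599 and 34.0 UMIs per 1000000 UMIs of the class (CPM) in WT and KO at 24 h, and at 423 and 44.3 at 72 h. The summed level of the monocyte/macrophage (Mφ) markers in DC-like cells, of which 10 to 11 of 11 had a UMI, was 1066, 808, 1306 and 589 CPM, and its part in the results was not tested. Libraries shared 4 cell barcodes, none of them in a DC-like cell.

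Most UMIs of each of the 7 genes lay in DC-like cells. Over the 4 libraries together, DC-like cells held 88.3% of all Ccr7 UMIs (759 of 860), 92.8% of Fscn1 (674 of 726), 90.7% of Ccl17 (8442 of 9309), 92.8% of Ccl22 (1111 of 1197), 82.8% of Il4i1 (922 of 1114), 96.8% of Plet1 (2985 of 3085) and 80.5% of Cd209a (3908 of 4857). In single libraries the lowest share was 55% for Ccr7, in WT at 24 h. Each was at least 4-fold higher in DC-like cells than in all other cells together in each of the 4 libraries, which held for 1.35% of 13125 genes. The lowest of these ratios was 8.75 for Cd209a, in CCR2 KO at 72 h, and the highest was 2972 for Plet1, in WT at 24 h. As DC-like cells were the class the list was chosen for, these ratios are a description.

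**Figure D1:**
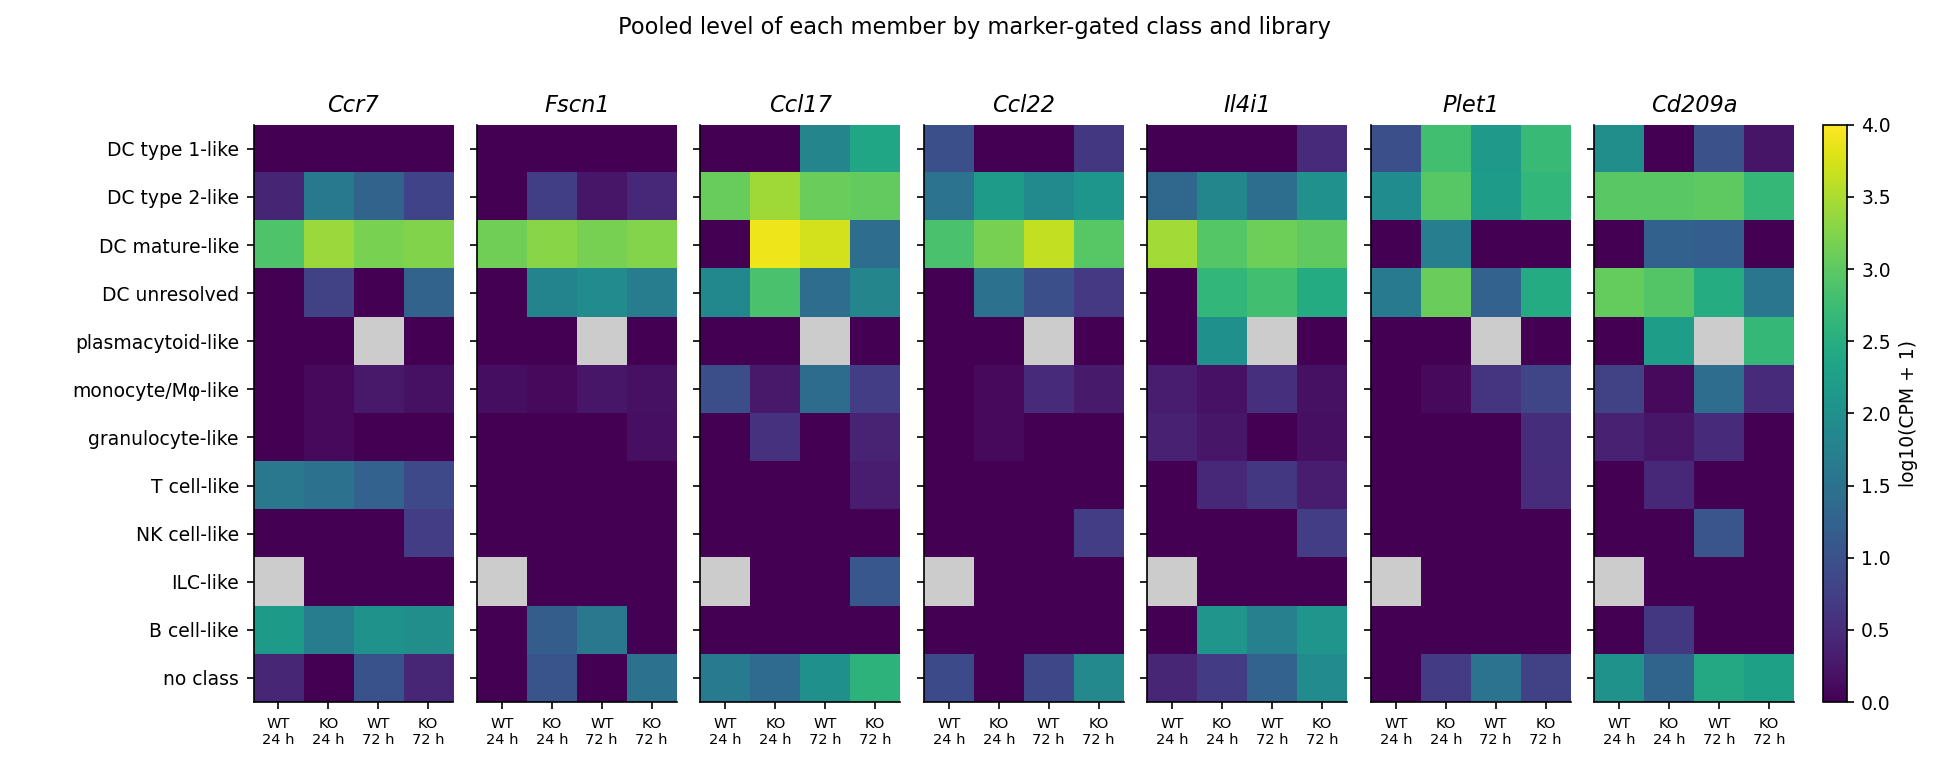
Level of each gene (colour, log10 of CPM + 1) in each marker-gated class (rows) and library (columns), with grey where a library had no cell of the class. Ccr7 and Fscn1 were brightest in mature-like DCs and Cd209a in type 2-like or unresolved DCs, except in KO 72 h. There Cd209a was at 465 CPM in 6 plasmacytoid-like cells, 455 in type 2-like and 35.7 in unresolved DCs. Levels were also seen outside DCs, such as Ccr7 and Il4i1 in B cell-like cells and Ccl17 and Cd209a in cells without a class.

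Outside DC-like cells, Ccr7 was found in lymphocytes, which also use it to reach lymph nodes. B cell-like cells held 44 Ccr7 UMIs, at 152, 48.7, 109 and 93.8 CPM in WT 24 h, KO 24 h, WT 72 h and KO 72 h, from 5, 35, 14 and 11 cells. In all libraries but KO 24 h this was above the Ccr7 level pooled over DC-like cells given below. T cell-like cells held 30, at 39.3, 29.5, 17 and 6.68 CPM. Il4i1 was found in B cell-like cells at 122, 54.3 and 119 CPM in KO 24 h, WT 72 h and KO 72 h, while the 5 B cell-like cells of WT 24 h had none. In the monocyte/Mφ-like cells Ccl17 was at 8.0, 0.846, 24.9 and 4.41 CPM and Cd209a at 5.14, 0.282, 26.3 and 1.96 CPM, so that both were higher in WT than in KO at each time, with 3 and 1 UMIs in KO at 24 h. Cells without a class held 4.06% of the Ccl17 UMIs and 9.64% of the Cd209a UMIs. At 72 h in CCR2 KO, 4 of 95 such cells carried 229 Ccl17 UMIs, which put the class at 387 CPM, but 190 of these UMIs were in 1 cell. Cd209a was at 259 CPM in cells without a class of WT 72 h.

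Within DCs the genes differed in the subset that held most of their UMIs. Mature-like cells held 684 of the 860 Ccr7 UMIs (79.5%), 631 of 726 Fscn1 UMIs (86.9%), 621 of 1197 Ccl22 UMIs (51.9%) and 400 of 1114 Il4i1 UMIs (35.9%). They held 1328 of 9309 Ccl17 UMIs (14.3%), 6 of 3085 Plet1 UMIs and 3 of 4857 Cd209a UMIs. Type 2-like cells held the larger part of these last genes, with 70.8% of Ccl17, 58.1% of Plet1 and 74.2% of Cd209a UMIs, and 39.8% of Ccl22. Type 1-like cells held 28.2% of the Plet1 UMIs, 3.89% of Ccl17 and 0.329% of Cd209a, and 0 UMIs of Ccr7 and of Fscn1 in all 4 libraries. Unresolved DCs held 21.4% of Il4i1 and 10.3% of Plet1. Of the 7717416 UMIs of all genes in DC-like cells, type 2-like cells carried 4527386, type 1-like 2173632 and mature-like 357881. The Plet1 shares of type 1-like and type 2-like cells were thus near their shares of all UMIs. As CPM, Ccl17 was higher in mature-like than in type 2-like cells in KO 24 h (7998 and 2675) and WT 72 h (5285 and 1233). It was lower in WT 24 h (0 and 1178) and KO 72 h (25.5 and 1106).

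The 18 mature-like cells were not alike. Il4i1 was found in all 18 with 2 to 93 UMIs, Ccr7 in 15 with a median of 19.5 and at most 194 UMIs, Fscn1 in 15 with a median of 21.5 and at most 165, and Ccl22 in 15 with a median of 6.5 and at most 264. Ccl17 was found in 11, with a median of 1.5 and at most 462. Plet1 and Cd209a were found in 2 cells each, with at most 5 and 2 UMIs. The cell with 194 Ccr7 UMIs, from KO 72 h, also had the most Fscn1 UMIs and 131 of Ccl22, but 1 of Ccl17. By contrast, 2 cells had neither Ccr7 nor Fscn1 and were rich in Ccl17, with 381 UMIs in KO 24 h and 333 in WT 72 h. The WT 72 h cell also carried 264 Ccl22 UMIs, which was 264 of the 397 Ccl22 UMIs of all DC-like cells of that library. A further KO 24 h cell had 462 Ccl17 and 50 Ccr7 UMIs and no Fscn1.

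**Figure D2:**
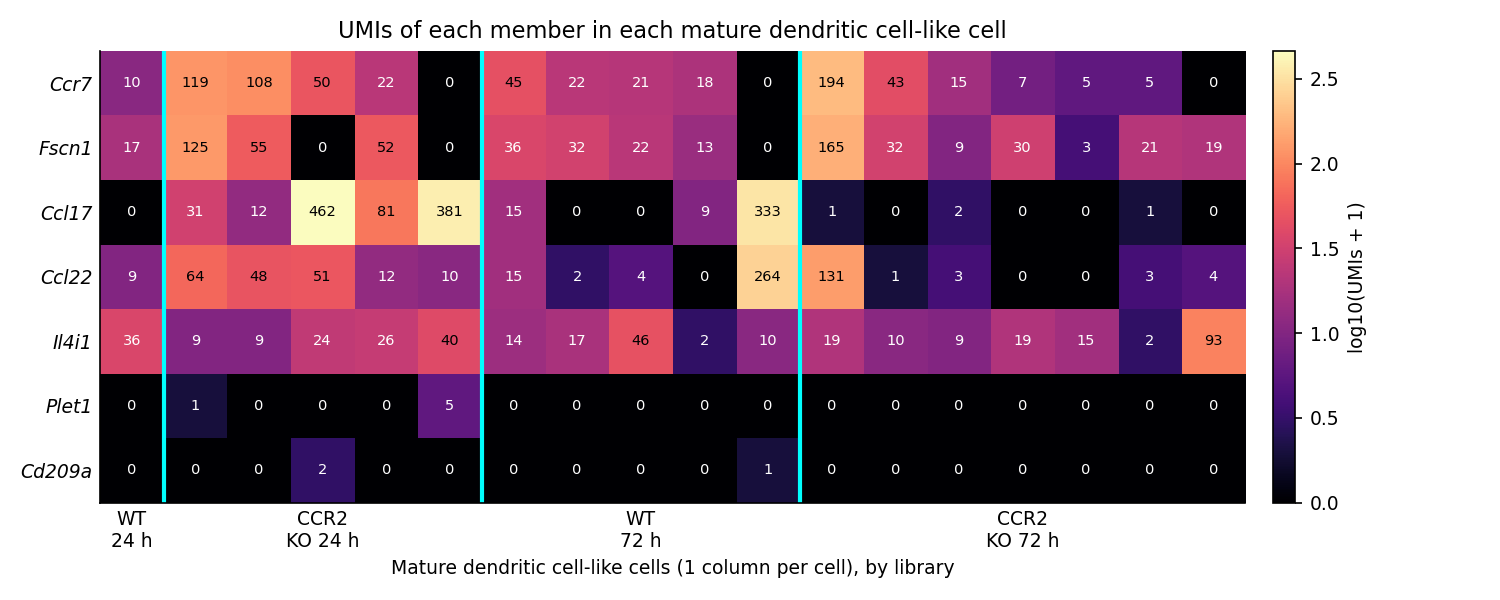
UMIs of each gene (rows, number and colour) in each of the 18 mature-like DCs (columns), by library. Ccr7 and Fscn1 were found together in 14 cells, and the cells with 333 to 462 Ccl17 UMIs had no Fscn1.

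As pooled levels in mature-like cells, Ccr7 was at 785, 2473, 1569 and 1717 CPM in WT 24 h, KO 24 h, WT 72 h and KO 72 h, and Fscn1 at 1334, 1919, 1525 and 1781 CPM. Both were high in each of the 4 libraries, although WT 24 h rests on 1 cell. Ccl17 differed more, at 0, 7998, 5285 and 25.5 CPM, and Ccl22 was at 706, 1530, 4219 and 906 CPM. In WT 72 h without the cell rich in both chemokines, Ccl17 was at 478 and Ccl22 at 418 CPM, and in KO 72 h without the top cell Ccl22 was at 92.4 CPM. Il4i1 was at 2825, 893, 1317 and 1066 CPM.

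Across all DC-like cells, Ccr7 went with Fscn1 and Il4i1 and apart from Plet1 and Cd209a. Fscn1 was found in 16 of the 25 cells with Ccr7 and in 11 of the 314 without, Il4i1 in 23 of 25 and 47 of 314, and Ccl22 in 19 of 25 and 41 of 314. Plet1 was found in 6 of 25 and 149 of 314, and Cd209a in 6 of 25 and 198 of 314. Ccl17 lay between, in 17 of 25 and 147 of 314, and it was also found in 48 of the 60 cells with Ccl22. Of the 164 cells with Ccl17, 123 had Cd209a, as did 81 of the 175 without. Cells of 1 library share their depth and mice, so these are counts of cells and not of replicates.

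At 24 h post-injury, 6 of the 7 genes were at least 2-fold higher in DC-like cells of CCR2 KO than of WT, against 4.35% of the 7706 genes compared, and none was 2-fold lower (3.26% of genes). The median log2 ratio of KO to WT over the 7 was 2.74, and -0.02 over all genes. Since the list was made with these values known, nothing is read from the count. Cd209a was the exception. Within type 2-like cells 6 of the 7 genes passed the filter of 20 UMIs, all but Fscn1 (0 and 4 UMIs). Of these, 5 were at least 2-fold higher and 0 lower (3.71% and 3.37% of genes), with Ccr7 at 1 and 35 UMIs among them. At 72 h the counts were 2 higher, Il4i1 and Plet1, and 2 lower, Ccr7 and Cd209a (2.46% and 2.16%). The Ccr7 difference there rests on 24 UMIs in 2 of 79 WT cells, 21 of them in 1 cell, and 9 UMIs in 1 of 63 KO cells.

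At 24 h Ccr7 reached 13.1 CPM (6.52 to 23.4) in DC-like cells of WT mice against 253 CPM (227 to 282) in those of KO mice. The corresponding levels at 72 h were 64.8 (54.1 to 76.9) and 79.8 CPM (70.8 to 89.7). WT 24 h was lowest and KO 24 h highest, and the intervals of the 72 h libraries overlapped. The log2 ratio of KO to WT was 4.28 (3.42 to 5.30) at 24 h and 0.30 (-0.00 to 0.61) at 72 h. These came from 11 UMIs in 2 cells, 335 in 9, 130 in 6 and 283 in 8, and 194 of the 283 were in a single cell. Without the cell richest in Ccr7 in each library the 72 h log2 ratio was -0.75, and without mature-like cells it was -1.58 (24 and 14 UMIs), so its sign rests on few cells. At 24 h a single WT cell held 10 of the 11 UMIs, and the ratio without the richest cells was 6.54.

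Fscn1 was at 20.2 CPM (11.8 to 32.3), 188 (165 to 212), 56.8 (46.9 to 68.3) and 83.2 (74 to 93.3) in WT 24 h, KO 24 h, WT 72 h and KO 72 h. It had the same order as Ccr7, with log2 ratios of KO to WT of 3.22 (2.51 to 4.02) at 24 h and 0.55 (0.23 to 0.88) at 72 h. All 17 UMIs of WT 24 h came from 1 cell, and without it the library had none. At 72 h 165 of the 295 KO UMIs also came from 1 cell, and without the richest cell of each library the 72 h ratio was -0.08. Outside mature-like cells, Fscn1 had 0 UMIs in WT and 16 in KO at 24 h, and 11 and 16 at 72 h.

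Ccl17 was at 905 CPM (842 to 972), 2591 (2505 to 2679), 1031 (987 to 1077) and 616 (590 to 642). It was highest in KO at 24 h and lowest in KO at 72 h, with WT in between at both times and no overlap of intervals. KO to WT log2 ratios were 1.52 (1.40 to 1.63) at 24 h and -0.74 (-0.83 to -0.66) at 72 h. In type 2-like cells, which held most of it, the levels were 1178, 2675, 1233 and 1106 CPM, with log2 ratios of 1.18 (1.07 to 1.30) and -0.16 (-0.25 to -0.06). The KO 24 h level therefore stood apart in this subset too, whereas the 72 h difference was smaller there.

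Ccl22 was at 36.8 CPM (25 to 52.2), 249 (223 to 277), 198 (179 to 218) and 99.8 (89.7 to 111). KO exceeded WT at 24 h by a log2 ratio of 2.76 (2.23 to 3.34), and the ratio was -0.99 (-1.20 to -0.78) at 72 h. The lower KO level at 72 h rested on few cells, among them the WT cell with 264 UMIs. Without the richest cell of each library the log2 ratio was -0.28. Without mature-like cells it was 0.11 (-0.22 to 0.46), and in type 2-like cells it was 0.61 (81.5 and 125 CPM). In type 2-like cells 161 of the 206 KO UMIs were in 1 cell, and 46 of the 111 WT UMIs were in 1 cell. The ratios in type 2-like cells and without mature-like cells include these cells, so their signs rest on few cells too. At 24 h the type 2-like levels were 32.6 and 159 CPM (2.29).

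Il4i1 was at 59.3 CPM (44.0 to 78.2), 190 (167 to 215), 98.7 (85.4 to 113) and 119 (108 to 131), with log2 ratios of KO to WT of 1.68 (1.24 to 2.15) and 0.27 (0.03 to 0.52). The 72 h intervals overlapped. In WT at 24 h, 36 of its 50 UMIs lay in the single mature-like cell, and without the richest cell of each library the 24 h ratio was 3.18. In type 2-like cells KO was higher at both times, at 21.8 and 68.0 CPM at 24 h (log2 ratio 1.64) and at 26.4 and 104 CPM at 72 h (1.98).

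**Figure D3:**
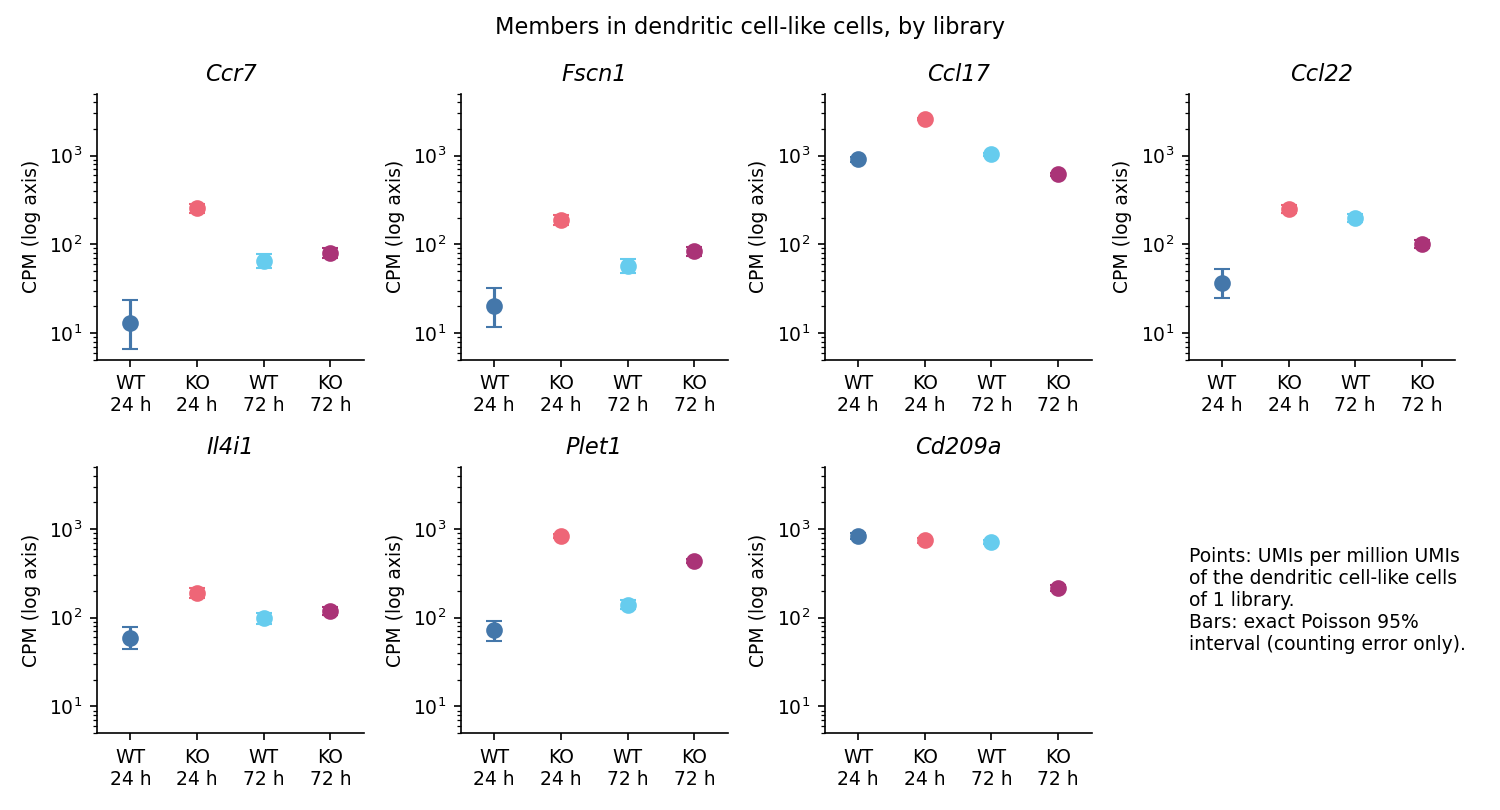
Pooled level (CPM, log axis) of each gene in DC-like cells of each library, with exact Poisson 95% intervals. Every gene but Cd209a was highest in KO 24 h, and Plet1 was higher in KO than in WT at both times.

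Plet1 reached 72.4 CPM (55.4 to 93.0) for WT against 838 (789 to 889) for KO at 24 h, and 141 (125 to 158) against 433 (411 to 455) at 72 h. Both KO libraries lay above both WT libraries. The log2 ratio of KO to WT was 3.53 (3.16 to 3.93) at 24 h and 1.62 (1.44 to 1.81) at 72 h, and without mature-like cells it was 3.64 and 1.64. UMIs were found in 9 of 51, 33 of 58, 35 of 110 and 78 of 120 cells. The KO UMIs thus came from many cells, and the richest KO cell held 154 of 1108 UMIs at 24 h and 74 of 1534 at 72 h. In WT at 24 h 33 of the 61 UMIs were in 1 cell, and the ratio without the richest cells was 4.41. It was the only one of the 7 genes at least 2-fold higher in KO at 72 h (3.05% of 9596 genes).

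The Plet1 difference appeared in both conventional subsets. In type 2-like cells it was at 88.6, 901, 158 and 447 CPM, with log2 ratios of 3.35 (2.96 to 3.76) at 24 h and 1.5 (1.28 to 1.73) at 72 h, and UMIs in 7 of 39, 21 of 39, 24 of 79 and 38 of 63 cells. In type 1-like cells it was at 8.54, 625, 141 and 491 CPM. The 72 h ratio there was 1.80 (1.43 to 2.19), with UMIs in 10 of 19 WT and 36 of 39 KO cells, while at 24 h only 6 WT cells with 1 UMI and 4 KO cells with 88 were compared.

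Cd209a was at 838 CPM (777 to 902), 749 (703 to 797), 722 (685 to 760) and 216 (200 to 231). The first 3 libraries lay close together and KO 72 h below them. The log2 ratio of KO to WT was -0.16 (-0.30 to -0.02) at 24 h and -1.74 (-1.87 to -1.62) at 72 h, and it was the only one of the 7 at least 2-fold lower in KO at 72 h (2.25% of genes). At 72 h KO had more type 1-like cells, 32.5% against 17.3% of DC-like cells, and these carry almost no Cd209a. Within type 2-like cells the levels were 957, 953, 1034 and 455 CPM and the 72 h log2 ratio was -1.18 (-1.31 to -1.06), with UMIs in 76 of 79 WT and 47 of 63 KO cells. The lower level in KO at 72 h was thus smaller but present within the subset.

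**Figure D4:**
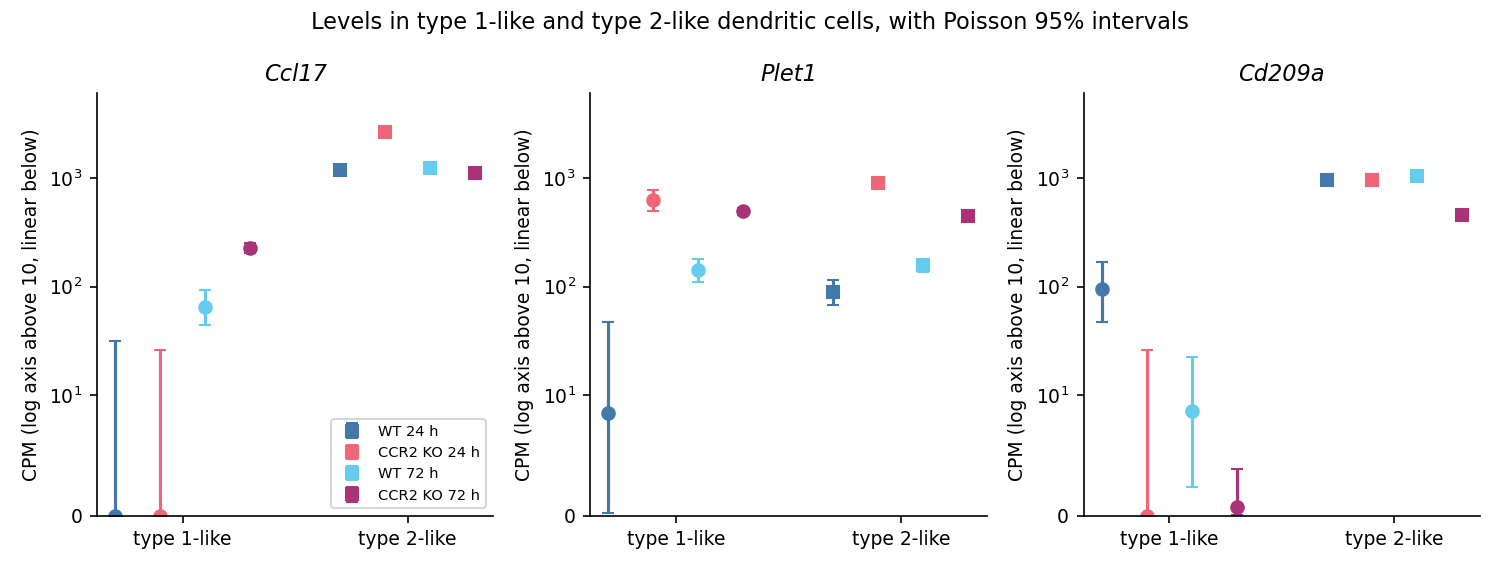
Levels (CPM, log axis above 10 and linear below) of Ccl17, Plet1 and Cd209a in type 1-like (circles) and type 2-like (squares) DCs of each library, with exact Poisson 95% intervals. Plet1 was higher in KO in both subsets at both times, whereas Cd209a in type 2-like DCs was lowest in KO 72 h.

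Since KO DCs were more deeply counted, the share of cells with a UMI was also taken after thinning each cell to 1000 UMIs. Plet1 was then found in 5.88%, 31.0%, 9.09% and 25.8% of DC-like cells in WT 24 h, KO 24 h, WT 72 h and KO 72 h, Ccl17 in 17.6%, 44.8%, 32.7% and 15.8%, and Cd209a in 41.2%, 36.2%, 44.5% and 15.0%. Ccr7 was found in 1.96%, 10.3%, 4.55% and 4.17%, Ccl22 in 3.92%, 17.2%, 3.64% and 2.50%, and Il4i1 in 5.88%, 20.7%, 8.18% and 10.0%. These keep the order of the pooled levels at 24 h. At 24 h Fscn1 was found in 0 of 51 WT cells, a count that allows shares of up to 5.88%, and in 5.17%, 3.64% and 3.33% of the others. In granulocyte-like cells, which should lack these genes and had median depths of 2054.5 to 3455 UMIs, no share exceeded 0.553%.

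From 24 h to 72 h the genotypes differed in direction. In WT, 3 of the 7 genes were at least 2-fold higher at 72 h (6.65% of 8454 genes) and none was 2-fold lower (2.72%). The log2 ratios of 72 h to 24 h were 2.43 for Ccl22 (1.90 to 3.0), 2.31 for Ccr7 (1.42 to 3.35) and 1.49 for Fscn1 (0.75 to 2.32), followed by 0.96 for Plet1, 0.73 for Il4i1, 0.19 for Ccl17 and -0.22 for Cd209a. In CCR2 KO, none was 2-fold higher (7.24% of 9422 genes) and 5 were at least 2-fold lower (3.76%). These were Ccl17 (-2.07, -2.15 to -2.00), Cd209a (-1.80, -1.94 to -1.66), Ccr7 (-1.67, -1.90 to -1.43), Ccl22 (-1.32, -1.54 to -1.10) and Fscn1 (-1.17, -1.42 to -0.92), with Plet1 at -0.95 and Il4i1 at -0.67. Without the richest cell of each library the WT ratios were 1.31 for Ccl22, 4.57 for Ccr7, 1.82 for Plet1, 2.07 for Il4i1 and 0.39 for Ccl17, and the KO ratio of Ccr7 was -2.72. The medians over the 7 were 0.95 in WT and -1.32 in KO, with all-gene medians of 0.01 and 0.03. Both time comparisons use the same libraries as the genotype comparisons and are not independent of them. In type 2-like cells, where Fscn1 had too few UMIs to be compared, the counts of the other 6 genes at least 2-fold higher and lower at 72 h were 2 and 0 in WT (6.84% and 3.46% of genes) and 0 and 4 in KO (6.2% and 2.83%). Il4i1 was higher at 72 h in both genotypes there, with log2 ratios of 0.28 (-0.64 to 1.29) in WT and 0.61 (0.18 to 1.07) in KO. There, Ccl17 and Cd209a had log2 ratios of 0.07 and 0.11 in WT, and the ratios in KO were -1.27 for Ccl17, -1.07 for Cd209a and -1.01 for Plet1.

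**Figure D5:**
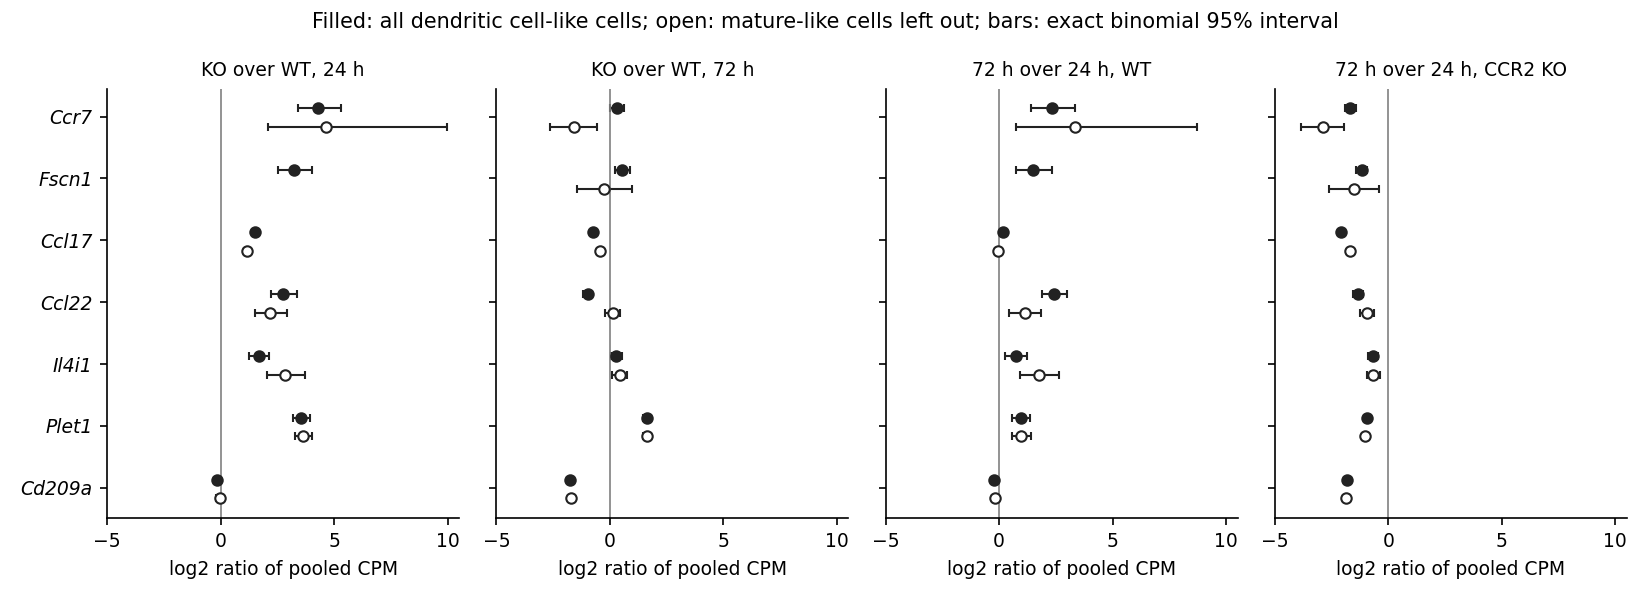
Log2 ratio of pooled CPM for each gene in 4 comparisons, for all DC-like cells (filled) and without mature-like cells (open), with exact binomial 95% intervals and no open point for Fscn1 where WT 24 h had 0 UMIs. For KO over WT at 24 h each point drawn but those of Cd209a lay at or above 1.16, whereas at 72 h those of Ccr7, Fscn1 and Ccl22 had opposite signs with and without mature-like cells.

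Other genes of DC maturation were compared in the same cells by lists made with earlier results of these data known. At 24 h, 4 of 5 compared maturation and costimulation genes were at least 2-fold higher in KO, against the 4.35% of all genes given above: Cd83 (log2 ratio 1.69), Cd80 (1.33), Cd40 (1.03) and Relb (1.01), whereas Cd86 was at 0.33 (list median 1.03). Of 7 regulatory genes, 6 were at least 2-fold higher, among them Pdcd1lg2 (2.46), which encodes a ligand of the T cell inhibitory receptor PD-1, Socs2 (1.69), Aldh1a2 (1.25), which encodes the enzyme that makes retinoic acid, and Cd274 (1.23), whereas Socs1 was at 0.19. Within type 2-like cells fewer passed 2-fold (3.71% of genes), which were 2 of 5 maturation genes, Cd83 (2.52) and Cd80 (1.41), and 2 of 5 regulatory genes, Pdcd1lg2 (1.86) and Socs2 (1.38). There Relb was at 0.80, Cd40 at 0.63, Cd274 at 0.94 and Aldh1a2 at 0.0049, and Cd200 and Fas had too few UMIs. KO had 5 mature-like cells at 24 h and WT had 1, and the part of these cells in the list counts over all DC-like cells was not tested. Of 6 migration and cytoskeleton genes, 2 were at least 2-fold higher, Cxcl16 (1.51) and Adam8 (1.21). None of the 3 compared type 2 response genes or the 4 compared Cd209 family genes was past 2-fold in either direction.

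At 72 h few of the maturation, regulatory, migration and type 2 response genes were past 2-fold between genotypes. Of all genes, 3.05% were at least 2-fold higher and 2.25% lower. Cd83 was at -1.16 and was the only maturation gene past it, and Fas (1.57) was the only regulatory gene. Of 3 compared Cd209 family genes, 1 was higher (1.45) and 1 lower (-2.33). In the type 2-like subset 1 of 5 maturation and 1 of 6 migration genes were lower (2.16% of genes). There 1 of 5 regulatory genes was higher (2.46%), and of 3 Cd209 family genes 2 were higher and 1 lower. In CCR2 KO from 24 h to 72 h, 4 of 5 maturation genes and 5 of 7 regulatory genes were at least 2-fold lower (3.76% of all genes), with medians of -1.11 and -1.41. Within type 2-like cells these were 2 of 5 and 4 of 5 (2.83% of genes), and Aldh1a2 was at 0.99. In WT over the same time 1 of 5 and 1 of 6 were at least 2-fold higher (6.65% of all genes), Cd83 (1.74) and Aldh1a2 (1.81), and Socs1 was at -1.46. Of the 6 migration and cytoskeleton genes, 3 were at least 2-fold higher over time in WT (list median 0.86), and 0 were past 2-fold in KO. Within type 2-like cells 3 of 6 were higher in WT (6.84% of genes) and 2 of 6 lower in KO (2.83%). The CCR4 gene and Ackr4 had 0 UMIs in DC-like cells, and Ccl19, Ccl21a and Ackr2 were not analysed here.

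Over 19 points of a class in a library, each with at least 20 cells, the genes whose log levels went most closely with Ccl17 were Aldh1a2 (Pearson r 0.98), Dcstamp (0.97) and Adam23 (0.96). With Plet1 these were Zfp366 (0.98), Adam23 (0.97) and Mycl (0.97), and with Cd209a its relative Cd209c (0.96), Wnt11 (0.96) and Cgnl1 (0.96). Mature-like cells were too few to give a point, so no likeness is given for Ccr7, Fscn1, Ccl22 and Il4i1, of whose UMIs they held 35.9% to 86.9%. Most of the points were of classes other than DCs, so a high r can come from the difference between DCs and other cells. Within type 2-like cells Aldh1a2 did not follow Ccl17 between genotypes at 24 h (log2 ratios 0.0049 and 1.18). It also did not from 24 h to 72 h in KO (0.99 and -1.27). The points share libraries, and the r values order genes and carry no test.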

How the data were processed

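The deposited values are UMI counts per gene and cell, without normalization, from 4 libraries of CD45+ cells. Per the labels and methods, the authors prepared 10x Genomics 3' libraries, counted UMIs with Cell Ranger 3.0.2 on GRCm38 (mm10), used Seurat, and kept only cells that had at least 200 genes and no more than 10% of mitochondrial UMIs. Groups came from the labels.

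Cells were gated with Python 3.11.15, pandas 2.3.3, numpy 2.4.6 and scipy 1.17.1. Marker levels per 10000 UMIs were taken on a log scale, each marker was divided by its 0.9 quantile among cells with a UMI (at most 1), and a class needed 3 markers, a mean of 0.25 and a lead of 0.1. These thresholds, and the direct entry of mature-like cells into the DC class, were set after the data had been seen. That entry was made after Ccr7 UMIs had been seen in cells without a class. The mast cell list was not gated, as 2 of its 5 markers were not found. Scrublet marked 11 cells (0.189%), too few to count as working, and 0 of them DC-like, so no doublets were removed.

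Levels are pooled CPM with exact Poisson 95% intervals, and ratios have exact binomial intervals. Comparisons over all genes kept genes with at least 20 UMIs over both libraries and added 0.5 counts. Symbols of 16133 genes matched GENCODE. The 7 genes and all lists were chosen with earlier results of these data known. The text names the 7 genes, list genes past 2-fold or listed beside them, and, for Ccl17, Plet1 and Cd209a, the genes most alike by Pearson r of log2(CPM + 1) among 11835 genes with at least 50 UMIs. Alternatives were Leiden clusters (scanpy 1.11.5, leidenalg 0.10.2), stricter gates, TMM scaling (R 4.3.3, edgeR 4.0.16), thinning, and leaving out mature-like or richest cells.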

Additional observations from a re-analysis of the deposited data

Results flagged for a closer look

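The log2 ratio of 72 h to 24 h in DC-like cells had opposite signs in WT and CCR2 KO for 6 of the 7 genes, in this order: Ccr7 at 2.31 and -1.67, Fscn1 at 1.49 and -1.17, Ccl17 at 0.19 and -2.07, Ccl22 at 2.43 and -1.32, Il4i1 at 0.73 and -0.67, and Plet1 at 0.96 and -0.95. The log2 ratio of KO to WT had opposite signs at 24 h and 72 h for Ccl17, at 1.52 and -0.74, and for Ccl22, at 2.76 and -0.99. These are the same 4 libraries read along time and along genotype, with 1 library per group, and neither difference was tested. The share of all genes with opposite signs was not taken, so nothing is read from these counts. The Ccl17 ratio over time in WT changed sign with Leiden clusters, with the first gate tried and without mature-like cells. The Ccl22 ratio of KO to WT at 72 h changed sign without mature-like cells. Within type 2-like cells the signs were the same for Il4i1 over time (0.28 in WT and 0.61 in KO). There they were also the same for Ccl22 between genotypes (2.29 at 24 h and 0.61 at 72 h). That 72 h value for Ccl22 includes 1 KO cell with 161 of the 206 UMIs, so its sign rests on few cells.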

How the results depend on the processing

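No paired analysis was possible because there was 1 library per group and no test. For the same reason no library could be left out. Each recomputed value was set against a counting interval, which for a summary was that of its middle gene, as a median has none of its own. Of the values recomputed for summaries, 33 stayed within that interval, 9 moved out of it and 5 changed sign. For single genes, each with its own interval, these numbers were 226, 95 and 8 of 329. Leaving out the filter on low counts, or the Scrublet doublets, could not change the ratios in DC-like cells. Those unchanged values are counted among the 33 and the 226, so these counts overstate how stable the ratios were. The causes were not tested unless the alternative's own construction shows them. The median log2 ratio of KO to WT over the 7 genes at 24 h was 2.74 and ranged from 2.05 (cells thinned to 2000 UMIs) to 3.18. At 72 h it was 0.27, and it was 0.64 with Leiden clusters made without the 7 genes, -0.28 without the richest cell of each gene, -0.49 after thinning to 2000 UMIs, -0.068 with the first gate tried, -0.28 without mature-like cells and -0.14 as the mean CPM of single cells, so its sign was not stable. The median of 72 h to 24 h in WT (0.95) was 1.82 without the richest cells, and that in KO (-1.32) was -0.97 with at most 5% mitochondrial UMIs, -1.79 without the richest cells, -1.97 with the first gate and -1.66 as the mean CPM of single cells. The median share of UMIs in DC-like cells (90.7%) was 93.2% with Leiden clusters. The median share of DC-like cells with a UMI (10.6%) was 20.6% without thinning. Ccr7, KO to WT at 72 h (0.30, interval reaching 0), was -0.75 without the richest cell, -0.47 after thinning, -0.85 with the first gate, -1.56 without mature-like cells and -0.14 as the mean CPM of single cells, and is counted among those that moved. Among ratios whose interval left out 0, the sign changed for Cd209a, KO to WT at 24 h (0.022 with at most 5% mitochondrial UMIs), for Fscn1 at 72 h (-0.082 without the richest cell, -0.49 after thinning, -0.28 without mature-like cells), for Ccl22 at 72 h (0.11 without mature-like cells) and for Ccl17 over time in WT (-0.068 with Leiden clusters, -0.046 with the first gate, -0.059 without mature-like cells). TMM factors were 0.993 to 1.006. Without the filter on low counts, genes at least 2-fold higher in KO at 24 h numbered 1150 rather than 335, at 72 h 1189 rather than 293 (lower, 992 rather than 216), over time in WT 1527 rather than 562, and lower over time in KO 1256 rather than 354. The 18 mature-like cells, and above all the 1 such cell of WT 24 h, limit what Ccr7 and Fscn1 show.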

Other observations

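The relatives of Cd209a in the Cd209 family went different ways between genotypes. Cd209d was at 67.6, 121, 33.9 and 92.5 CPM in DC-like cells (WT then KO at 24 h, WT then KO at 72 h), higher in KO at both times (log2 ratios 0.84 and 1.45), whereas Cd209c was at 13.1, 6.81, 18.4 and 3.67 CPM, lower in KO at both times (72 h log2 ratio -2.33). These are related genes, and whether reads were split between them in the counting was not tested. A plasmacytoid-like class of 6 cells in CCR2 KO at 72 h held 38 Cd209a UMIs in 3 cells, of which 34 were in 1 cell.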
